A study of Mus musculus with 12 samples.

Results

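Aminoacyl-tRNA synthetases are the enzymes that join each amino acid to its own transfer RNA, so that the ribosome can read a codon as an amino acid. The mRNAs of 36 synthetase genes, 20 for cytosolic enzymes and 16 for mitochondrial enzymes, were followed among the 12988 genes of the transcript table of mouse embryonic fibroblasts (MEF). The members were given as a list of gene symbols, and an enzyme was placed with the mitochondrial class when its symbol ended in 2. All 36 were in the table and all 36 passed the filter of a mean of at least 0.5 FPKM, where FPKM are fragments scaled to transcript length and library size.

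The 4 groups were HSF1 KO MEF with LiCl, HSF1 KO MEF without LiCl, WT MEF with LiCl and WT MEF without LiCl, with 3 libraries each (12 in all). HSF1 KO cells are MEF labelled as a knock-out of the heat shock transcription factor gene Hsf1, although 1 figure legend of the study writes HSF1+/- for the MEF sequenced, and WT cells are wild type MEF. LiCl stands for 20 mM lithium chloride for 48 h, a salt that inhibits the kinase GSK3 and thereby stabilizes β-catenin, and the study used it to ask how HSF1 relates to β-catenin signalling. The study's methods say that sequencing was repeated, but not whether the 3 libraries of a group were separate cultures, so the p-values rest on differences among these libraries that could be technical. The libraries are called replicates 1, 2 and 3, where 3 is the one that carries no number in the labels.

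Cytosolic synthetases charge tRNAs for the translation of nuclear-encoded proteins. Several of them (the Dars, Eprs, Iars, Kars, Lars, Mars, Qars and Rars products) sit together in the multi-tRNA synthetase complex on the scaffold proteins encoded by Aimp1, Aimp2 and Eef1e1, and the others work outside it. The mitochondrial enzymes are also made from nuclear genes, are imported, and charge tRNAs for the few proteins encoded by mitochondrial DNA. Gars and Kars each supply both compartments from one gene, and Qars has no mitochondrial partner because mitochondria make glutaminyl-tRNA by amidation, with the proteins of Gatb, Gatc and Qrsl1. When uncharged tRNA builds up, the kinase GCN2 phosphorylates the initiation factor eIF2 and translation of the transcription factor ATF4 rises, and many cytosolic synthetase genes are textbook ATF4 targets through C/EBP-ATF response elements, here searched as TGATGNAA.

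The promoter stretches below are shown because that element was found in cytosolic members and in no mitochondrial member searched. RefSeq promoter windows of GRCm38.p6, reaching from 250 bases before the annotated start to 50 bases from it on, were held for 27 members (13 cytosolic and 14 mitochondrial). Cars, Hars, Lars, Nars, Rars, Vars and Wars, and Hars2 and Pars2, had none. Each line gives 30 bases on the strand of the gene, 5′ to 3′, with the match on either strand in capitals.
Aars, chr8:111033840-111033869, plus strand: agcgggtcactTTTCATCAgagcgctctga
Gars, chr6:55037960-55037989, plus strand: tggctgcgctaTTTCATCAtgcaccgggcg
Iars, chr13:49682126-49682155, plus strand: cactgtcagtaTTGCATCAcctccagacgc
Tars, chr15:11399655-11399684, minus strand: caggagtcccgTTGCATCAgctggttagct
Yars, chr4:129189895-129189924, plus strand: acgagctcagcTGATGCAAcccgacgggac

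Counted from the annotated start, the first base of the match in the stretches printed lay at -30 in Gars and -15 in Tars, and at 10 in Aars, 8 in Iars and 4 in Yars. TGATGNAA was present in 5 of 13 cytosolic windows (38.5%), in 0 of 14 mitochondrial windows and in 3.97% of all 32851 windows of the table. A pair of further motifs were searched on both strands, and neither overlaps TGATGNAA in these windows. The E-box CACGTG, which MYC and MAX or MITF and TFEB bind, was in 4 of 13 cytosolic windows (30.8%, Aars, Farsb, Iars and Tars), in 1 of 14 mitochondrial windows (7.14%, Ears2) and in 7.15% of all windows. The inverted pair of heat shock element units GAANNTTC, the kind of letters HSF1 binds, was in 1 of 13 cytosolic windows (7.69%), in 0 of 14 mitochondrial windows and in 7.86% of all windows. The 1 heat shock match was in the window of Dars, the aspartyl-tRNA synthetase gene, at position -75.
Dars, chr1:128417473-128417502, minus strand: ggctctgcaggGAAGATTCctcggagccta
A match describes these letters in this window, and no binding was measured.

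Hsf1 itself was checked first. Without LiCl it had 0.939, 3.89 and 2.07 FPKM in KO cells, against 11.1, 7.96 and 8.17 FPKM in WT cells. With LiCl it had 3.65, 7.64 and 5.92 FPKM in KO cells, against 14.5, 13.4 and 11.2 FPKM in WT cells. The genotypes did not overlap in either condition, with log2 fold changes of -1.70 (standard error, SE, 0.31, adjusted p = 0.00142) without LiCl and -1.10 (SE 0.31, adjusted p = 0.0159) with it, and RNA assigned to Hsf1 was still read in every KO library. The values of a library summed to 344208 to 370025 FPKM, and the depth in reads is unknown. Libraries of one group correlated at 0.976 to 0.983 across genes (log2 scale) and libraries of different groups at 0.823 to 0.933. All 10 fibroblast markers were in the table, and summed to 1591 to 1660 FPKM in KO cells with LiCl, against 3100 to 3281 FPKM without it, and to 1407 to 1464 FPKM in WT cells with LiCl, against 4556 to 4882 FPKM without it. The 14 macrophage markers summed to 102 to 117 FPKM in KO cells with LiCl, against 1397 to 1617 FPKM without it, and to 40.9 to 44.7 FPKM in WT cells with LiCl, against 117 to 123 FPKM without it. None of the 4 endothelial markers was in the table, nor were Cdh1, Epcam, Myod1, Myog, Map2 and Sox2.

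The cytosolic class was the more abundant. Over the 12 libraries the median member had 36 FPKM in the cytosolic class and 3.09 FPKM in the mitochondrial class, and FPKM is a value per length, so genes can be set side by side. Nars, the asparaginyl-tRNA synthetase gene, was highest at 127 FPKM, followed by Gars at 115 and Sars at 90.8 FPKM. The lowest cytosolic member was Farsa, the α subunit gene of the phenylalanyl enzyme, at 3.56 FPKM, while its partner Farsb (β subunit) averaged 12.5 FPKM. In the mitochondrial class the range ran from 1.48 FPKM for Ears2 to 13.8 FPKM for Iars2, and 13 of 16 members lay below 5 FPKM. In 16 of 17 pairings of a cytosolic with a mitochondrial gene for the same amino acid the cytosolic level was higher. The exception was Farsa at 0.717 times the level of Fars2, and the largest gap was Nars at 52.3 times Nars2.

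**Figure D1:**
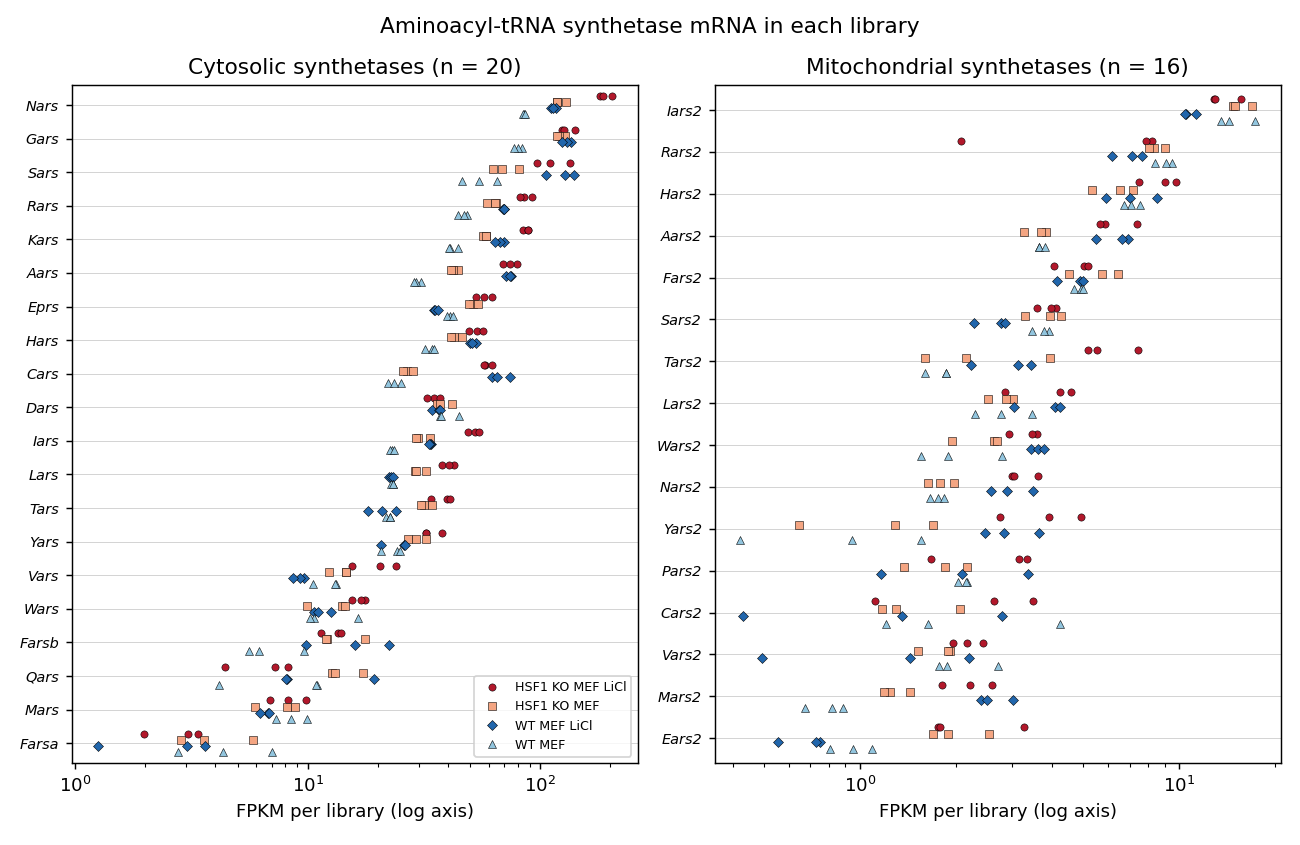
Level of each synthetase mRNA in each of the 12 libraries, in FPKM on a log axis, with cytosolic members on the left and mitochondrial members on the right, ordered by their mean. Each point is 1 library. Nars sits highest and Farsa lowest among cytosolic members, 13 of 16 mitochondrial members average below 5 FPKM, and Rars2 has 1 library, HSF1 KO MEF LiCl replicate 1, far below its others.

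Summed over the 20 cytosolic genes, synthetase mRNA was higher with LiCl in both genotypes and higher in HSF1 KO than in WT MEF. The sum was 1074, 1191 and 1082 FPKM in LiCl-treated HSF1 KO MEF, against 847, 814 and 817 FPKM without it. In WT MEF it was 930, 932 and 916 FPKM with LiCl, against 603, 623 and 639 FPKM without it. The 4 groups did not overlap, and WT MEF without LiCl was lowest. The mitochondrial sum was 71.0, 79.9 and 76.2 FPKM in LiCl-treated HSF1 KO MEF, against 60.8, 65 and 61.8 FPKM without LiCl, and these did not overlap. In WT MEF the mitochondrial sum was 67.6, 60.4 and 61.7 FPKM with LiCl, against 63.6, 57.8 and 62.0 FPKM without LiCl, and these did overlap. The ratio of the cytosolic to the mitochondrial sum was 9.48 to 10.8 in WT MEF without LiCl and 12.5 to 15.4 in the 9 other libraries. These sums are weighted to the few most abundant genes, and no test was run on them.

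**Figure D2:**
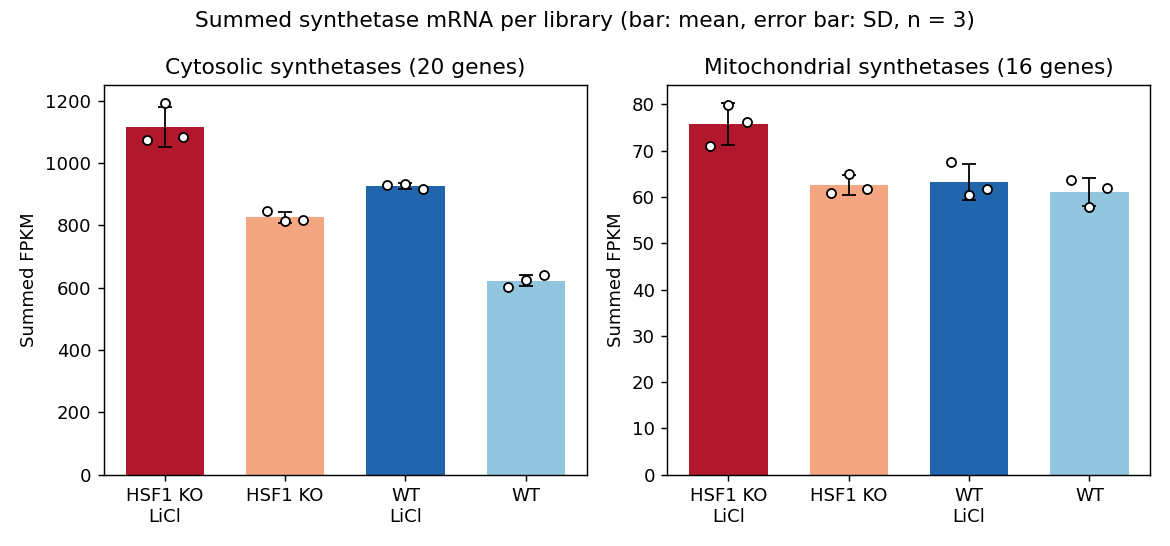
Summed FPKM of the 20 cytosolic (left) and 16 mitochondrial (right) synthetase genes. Points are libraries, bars are group means and error bars are the SD (n = 3). The cytosolic mean is 1116 ± 65 FPKM in HSF1 KO MEF LiCl, 826 ± 18.3 FPKM in HSF1 KO MEF, 926 ± 8.37 FPKM in WT MEF LiCl and 622 ± 18 FPKM in WT MEF, while the mitochondrial mean is 75.7 ± 4.51 FPKM in HSF1 KO MEF LiCl, 62.6 ± 2.19 FPKM in HSF1 KO MEF, 63.2 ± 3.83 FPKM in WT MEF LiCl and 61.1 ± 3.01 FPKM in WT MEF.

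In WT MEF, 10 of 20 cytosolic synthetase mRNAs rose with LiCl and 2 fell, while 8 stayed short of the threshold (limma on log2(FPKM + 1), adjusted p under 0.05 over all 12279 genes tested). Of all genes tested, 38.1% were called higher and 27.1% lower in the same comparison, so a call is common here. The median log2 fold change was 0.41 over the cytosolic members and 0.13 over all genes. The 10 that rose were Aars, Cars, Farsb, Gars, Hars, Iars, Kars, Nars, Rars and Sars, and the 2 that fell were Eprs and Vars. Outside the multi-tRNA synthetase complex 7 of 12 genes rose, and inside it 3 of 8 did. Because 1 was added before the log, fold changes of weakly expressed members are understated.

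Cars, the cysteinyl-tRNA synthetase gene (ENSMUSG00000010755.17, GRCm38 chr7:143557230-143600090, minus strand), had the largest response of the cytosolic members on this scale. It had 73.9, 61.7 and 64.9 FPKM in LiCl-treated WT MEF, against 22.1, 25.1 and 23.5 FPKM in WT MEF without LiCl. Every treated library lay above every untreated one, and the log2 fold change was 1.46 (SE 0.08, adjusted p = 3.58e-08). Aars, which encodes the alanyl enzyme and whose window holds the first stretch printed above, had 74.6, 71.0 and 73.8 FPKM with LiCl, against 30.7, 29.3 and 28.5 FPKM without it. All 3 treated libraries stood above the untreated ones, with a log2 change of 1.28 (SE 0.06, adjusted p = 1.29e-08). Sars (seryl enzyme) had 106, 127 and 139 FPKM with LiCl, against 46.1, 54.5 and 64.8 FPKM without it. The groups did not overlap, but the spread within each was wide, and the log2 fold change was 1.16 (SE 0.16, adjusted p = 7.45e-05). Farsb had 16, 22.4 and 9.87 FPKM with LiCl, against 5.57, 9.61 and 6.19 FPKM without it. The lowest treated library was just above the highest untreated one, and the log2 fold change was 1.03 (SE 0.27, adjusted p = 0.00613). In the highest Farsb library, WT MEF LiCl replicate 2, all 22.4 FPKM were assigned to 1 of its 3 transcripts, which had at most 6.88 FPKM in any other library. Gars, the glycyl enzyme of cytosol and mitochondria, had 135, 130.4 and 123 FPKM with LiCl, against 83, 80.4 and 77.0 FPKM without it. These groups stood clearly apart, with a log2 change of 0.69 (SE 0.06, adjusted p = 2.73e-06).

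The other 5 that rose in WT MEF had log2 fold changes of 0.42 (Nars) to 0.66 (Kars). Hars, the histidyl enzyme gene, had 53.0, 49.6 and 50.9 FPKM with LiCl, against 34.3, 34.8 and 32.0 FPKM without it, and Iars, the isoleucyl enzyme gene, had 33.9, 33.5 and 33.2 FPKM, against 23.1, 22.5 and 23.4 FPKM. Nars had 117, 111 and 114 FPKM with LiCl, against 85.4, 84.2 and 85.5 FPKM without it. No treated library of Hars, Iars or Nars reached down to an untreated one. Eprs, which encodes the bifunctional glutamyl-prolyl enzyme, fell to 34.8, 35.3 and 36.3 FPKM with LiCl, against 41.0, 39.5 and 42.2 FPKM without it. The 2 groups did not overlap, and the log2 fold change was -0.20 (SE 0.06, adjusted p = 0.0178). Vars, the valyl enzyme gene, had 9.64, 9.27 and 8.65 FPKM with LiCl, against 13.2, 13.1 and 10.5 FPKM without it. The untreated libraries were higher without overlap, and the log2 fold change was -0.38 (SE 0.14, adjusted p = 0.0385). The remaining 8 had values of -0.65 (Farsa) to 0.40 (Qars) on the log2 scale, none past the threshold. Of the called members, the 10 that rose kept their call without any 1 library. Eprs lost it without WT MEF LiCl replicate 1 (-0.19, adjusted p = 0.0552) or WT MEF replicate 3 (-0.18, adjusted p = 0.0565). Vars lost it without any 1 WT MEF LiCl library, WT MEF replicates 1 or 2, or HSF1 KO MEF LiCl replicate 1 (-0.41 to -0.32, adjusted p = 0.0501 to 0.115).

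Scaling mattered for how many fell. With libraries rescaled by the median of ratios to a common reference, the median of all genes was -0.02 in place of 0.13, the share of higher calls among all calls was 49.0% in place of 58.4%, and the cytosolic median was 0.24. The same 10 cytosolic members were called higher on that scale, and 5 were called lower, with Dars, Lars and Mars added. With each library scaled to the same total Eprs was not called (-0.18, adjusted p = 0.0894). When the highest transcript of a gene stood in for the sum of its transcripts, the calls of Vars (adjusted p = 0.710) and Farsb (adjusted p = 0.329) were lost. The fibroblast markers fell with LiCl in 9 of 10 cases in WT MEF and 8 of 10 in HSF1 KO MEF, and their part in the synthetase changes was not tested. In bulk RNA, fewer cells of a type and less RNA per cell cannot be told apart.

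In WT MEF 38.1% of all genes were called higher with LiCl and 27.1% lower. The mitochondrial class moved in both directions there: 5 of 16 members rose and 2 fell. Their median log2 fold change was -0.01, -0.145 with median-of-ratios scaling, and 0.00 with each library scaled to the same total. Yars2, the mitochondrial tyrosyl enzyme gene, had 2.84, 2.46 and 3.65 FPKM with LiCl, against 0.944, 1.56 and 0.423 FPKM without it. The groups were apart at low levels, and the log2 fold change was 1.04 (SE 0.25, adjusted p = 0.00393). Mars2, the methionyl enzyme gene, had 2.39, 2.50 and 3.01 FPKM with LiCl, against 0.821, 0.674 and 0.887 FPKM without it. Here the treated libraries were far above the untreated ones, with a log2 change of 1.02 (SE 0.11, adjusted p = 1.11e-05). Aars2 had 6.91, 6.64 and 5.50 FPKM with LiCl, against 3.65, 3.63 and 3.81 FPKM without it, a log2 change of 0.64 (SE 0.11, adjusted p = 0.000413). Wars2, the tryptophanyl enzyme gene, had 3.44, 3.62 and 3.78 FPKM with LiCl, against 2.80, 1.89 and 1.55 FPKM without it, and rose by 0.60 (SE 0.15, adjusted p = 0.00402). For neither gene did the groups overlap. Nars2 had 3.48, 2.58 and 2.89 FPKM with LiCl, against 1.75, 1.84 and 1.67 FPKM without it, again without overlap, and a log2 change of 0.53 (SE 0.10, adjusted p = 0.000981). The pair that fell were Iars2, with 10.5, 10.4 and 11.3 FPKM with LiCl, against 17.3, 13.5 and 14.3 FPKM without it, and Sars2, with 2.76, 2.84 and 2.27 FPKM with LiCl, against 3.91, 3.76 and 3.45 FPKM without it. Every treated library of Iars2 and Sars2 was below every untreated one, with log2 fold changes of -0.44 (SE 0.10, adjusted p = 0.00303) and -0.38 (SE 0.10, adjusted p = 0.00731). None of these 7 calls was lost without any 1 library. With the highest transcript in place of the sum Yars2 lost its call (adjusted p = 0.0940), and without the 4 unnumbered libraries Wars2 did (adjusted p = 0.0561), a setting added after the data were seen.

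**Figure D3:**
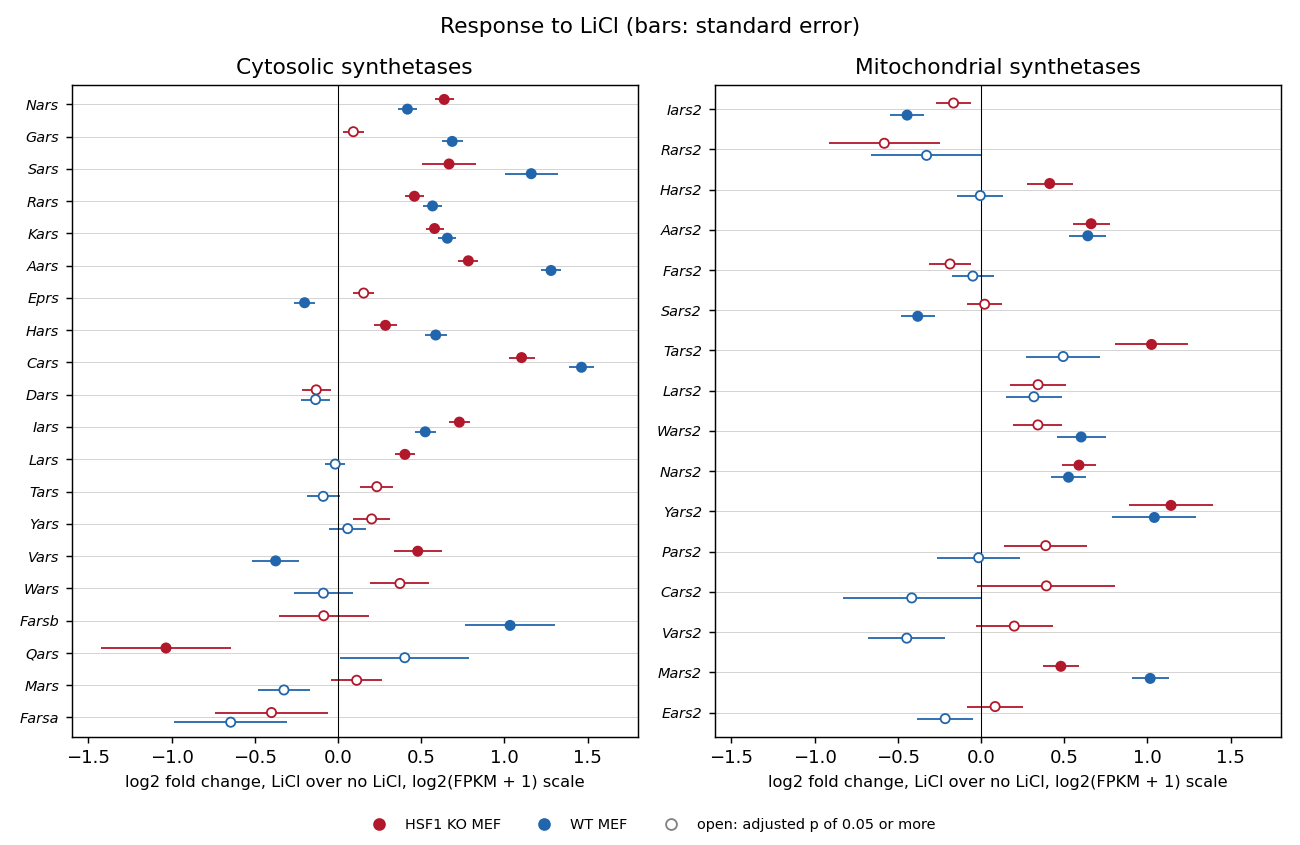
Log2 fold change of LiCl over no LiCl, on the log2(FPKM + 1) scale, for each cytosolic (left) and mitochondrial (right) member, in HSF1 KO MEF (red, upper point) and WT MEF (blue, lower point). Lines are standard errors, and filled points have an adjusted p under 0.05. Cars (1.10 in HSF1 KO MEF and 1.46 in WT MEF) and Aars (0.78 and 1.28) lie far to the right in both genotypes, while Gars and Farsb are filled in WT MEF and open near 0 in HSF1 KO MEF.

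In HSF1 KO MEF, 10 of 20 cytosolic members again rose with LiCl and 1 fell, against 36.5% of all genes called higher and 21.1% called lower. The median was 0.33 over the cytosolic members and 0.16 over all genes. The members that rose were Aars, Cars, Hars, Iars, Kars, Lars, Nars, Rars, Sars and Vars, and the 1 that fell was Qars. Inside the multi-tRNA synthetase complex 4 of 8 rose, and outside it 6 of 12 did. The untreated HSF1 KO libraries carried macrophage genes, and 14 of 14 markers fell with LiCl. Their part in the synthetase changes was not tested. The comparison shares no library with that in WT MEF, and 8 of 20 cytosolic members rose in both, against 28.2% of all genes: Aars, Cars, Hars, Iars, Kars, Nars, Rars and Sars.

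Cars had 57.9, 62.0 and 57.0 FPKM in LiCl-treated HSF1 KO MEF, against 26.7, 25.6 and 28.5 FPKM in HSF1 KO MEF without LiCl. The treated libraries were all above the untreated ones, and the log2 fold change was 1.10 (SE 0.08, adjusted p = 6.01e-07). Aars had 68.8, 79.0 and 73.9 FPKM with LiCl, against 44.2, 42.1 and 41.1 FPKM without it, also with no overlap and with a log2 change of 0.78 (SE 0.06, adjusted p = 1.12e-06). Iars had 48.6, 52.2 and 54.6 FPKM with LiCl, against 29.9, 29.2 and 33.5 FPKM without it. The groups stood far apart, and the log2 fold change was 0.73 (SE 0.06, adjusted p = 2.94e-06). Sars had 109.8, 134 and 96.4 FPKM with LiCl, against 68.2, 81.2 and 62.8 FPKM without it, and rose by 0.67 (SE 0.16, adjusted p = 0.00436). Nars had 180.3, 203 and 186 FPKM with LiCl, against 129, 118 and 118 FPKM without it, the highest levels of any member. In Sars and Nars no treated library was as low as an untreated one. Lars, the leucyl enzyme gene, had 37.7, 42.4 and 40.5 FPKM with LiCl, against 32.3, 29.0 and 29.3 FPKM without it. These did not overlap either, with a log2 change of 0.40 (SE 0.06, adjusted p = 0.000201).

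Vars rose in HSF1 KO MEF, to 20.4, 23.9 and 15.5 FPKM with LiCl, against 14.7, 12.4 and 14.5 FPKM without it. The lowest treated library exceeded the highest untreated one by little, and the log2 fold change was 0.48 (SE 0.14, adjusted p = 0.0143). Hars had 53.4, 56.8 and 49.2 FPKM with LiCl, against 46.2, 42.6 and 41.4 FPKM without it. There was no overlap, but the rise was small, at 0.28 (SE 0.07, adjusted p = 0.00376). Qars, the glutaminyl enzyme gene, had 4.43, 8.20 and 7.25 FPKM with LiCl, against 17.3, 12.7 and 13.1 FPKM without it. Each treated library was lower than each untreated one, with a log2 change of -1.03 (SE 0.39, adjusted p = 0.0409). Gars had 124, 140.1 and 126 FPKM with LiCl, against 128, 121 and 117 FPKM without it, and Farsb had 13.5, 11.4 and 13.8 FPKM, against 12.1, 12 and 17.7 FPKM. Both overlapped between the groups, at 0.09 (SE 0.06, adjusted p = 0.233) and -0.09 (SE 0.27, adjusted p = 0.809). Eprs had 52.8, 57.5 and 62.1 FPKM with LiCl, against 51.3, 49.2 and 53.9 FPKM without it, and overlapped as well, at 0.15 (SE 0.06, adjusted p = 0.0621). The other members short of the threshold had log2 fold changes of -0.40 (Farsa) to 0.37 (Wars).

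Some of these calls rested on single libraries or on the scale. Qars lost its call without HSF1 KO MEF LiCl replicate 1 (-0.81, adjusted p = 0.140) or 3 (-1.11, adjusted p = 0.0636), and without HSF1 KO MEF replicate 1 (-0.90, adjusted p = 0.119), 2 (-1.11, adjusted p = 0.0646) or 3 (-1.09, adjusted p = 0.0687). Vars lost its call without HSF1 KO MEF LiCl replicate 2 (0.34, adjusted p = 0.0548) or HSF1 KO MEF replicate 2 (0.41, adjusted p = 0.0562). With median-of-ratios scaling the share of higher calls was 48.4% in place of 63.3%, the cytosolic median was 0.13, and Hars (0.08, adjusted p = 0.375) and Vars (0.29, adjusted p = 0.132) were no longer called, while Dars was called lower (-0.33, adjusted p = 0.00395). With the highest transcript in place of the sum, Iars (adjusted p = 0.228), Vars (adjusted p = 0.135) and Qars (adjusted p = 0.499) were not called.

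Of the mitochondrial members, 6 of 16 rose in HSF1 KO MEF and 0 fell (limma, also 0 at an unadjusted p under 0.05). Of all genes tested, 36.5% were called higher and 21.1% lower. The mitochondrial median was 0.37, or 0.21 with median-of-ratios scaling. Yars2 had 3.92, 2.75 and 4.93 FPKM with LiCl, against 0.646, 1.29 and 1.70 FPKM without it. The groups were well apart, and the log2 fold change of 1.14 (SE 0.25, adjusted p = 0.00269) was close to that in WT MEF. Tars2, the threonyl enzyme gene, had 5.55, 7.44 and 5.19 FPKM with LiCl, against 1.60, 3.95 and 2.15 FPKM without it. It did not overlap, and rose by 1.02 (SE 0.22, adjusted p = 0.00223). Aars2 had 5.88, 7.37 and 5.64 FPKM with LiCl, against 3.82, 3.71 and 3.26 FPKM without it, and Nars2 had 3.0, 3.04 and 3.62 FPKM, against 1.98, 1.64 and 1.78 FPKM. Neither overlapped, with log2 fold changes of 0.66 (SE 0.11, adjusted p = 0.000426) and 0.59 (SE 0.10, adjusted p = 0.000559). Mars2 had 2.21, 1.81 and 2.60 FPKM with LiCl, against 1.24, 1.44 and 1.19 FPKM without it, no overlap, and a rise of 0.48 (SE 0.11, adjusted p = 0.00331). Hars2 rose by 0.41 (SE 0.14, adjusted p = 0.0257), and lost the call with median-of-ratios scaling (0.23, adjusted p = 0.185). It also lost it without HSF1 KO MEF LiCl replicate 1 (0.39, adjusted p = 0.0706) or 2 (0.34, adjusted p = 0.0882), or HSF1 KO MEF replicate 2 (0.31, adjusted p = 0.0999). Tars2 was not called on its highest transcript alone (adjusted p = 0.586). The 4 of 16 mitochondrial members that rose in both genotypes, also against 28.2% of all genes, were Aars2, Mars2, Nars2 and Yars2, and Cars2, Ears2, Fars2, Lars2, Pars2, Rars2 and Vars2 were called in neither.

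The response to LiCl differed between the genotypes for 9 members, tested as the response in HSF1 KO MEF minus that in WT MEF. Among cytosolic members 3 differences were positive (Eprs, Lars and Vars) and 5 negative (Aars, Cars, Farsb, Gars and Hars), and among mitochondrial members 1 was negative (Mars2) and 0 positive (limma, 1 positive at an unadjusted p under 0.05), against 16.1% of all genes called positive and 15.3% called negative. The counts of cytosolic members are near those shares. Of the negative ones, Aars, Cars, Hars and Mars2 rose in both genotypes, and Farsb and Gars were not called in HSF1 KO MEF. All 3 positive ones and none of the 5 negative ones were higher in HSF1 KO than in WT MEF under LiCl. This split is no separate result. By construction, the difference between the responses equals the genotype difference with LiCl minus that without it.

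Gars had the difference with the smallest adjusted p, -0.59 (SE 0.09, adjusted p = 0.000469). Its values above show 3 groups at like levels, from 117 to 140.1 FPKM, and untreated WT MEF at 77.0 to 83 FPKM. For Aars the difference was -0.50 (SE 0.09, adjusted p = 0.00119). The treated libraries of both genotypes overlapped, and the untreated HSF1 KO libraries were above the untreated WT ones. Vars had the difference 0.85 (SE 0.20, adjusted p = 0.00826), from a rise in HSF1 KO MEF and a fall in WT MEF. Lars, which had 22.3, 22.9 and 23.3 FPKM in LiCl-treated WT MEF, against 23.3, 22.8 and 23.2 FPKM without it, had the difference 0.42 (SE 0.09, adjusted p = 0.00367). WT levels overlapped, and with the numbered libraries only the difference was not called (0.40, adjusted p = 0.0510). For Eprs the difference was 0.35 (SE 0.09, adjusted p = 0.0128), and it was not called when each library was scaled to the same total (adjusted p = 0.0566).

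The other 4 differences depended on single libraries. Farsb differed by -1.12 (SE 0.38, adjusted p = 0.0477), and lost the call without each library except WT MEF LiCl replicate 3 and WT MEF replicate 2 (-1.21 to -0.86, adjusted p = 0.0588 to 0.105), and with a pseudocount of 0.1 (-1.22, adjusted p = 0.0507). Cars differed by -0.36 (SE 0.11, adjusted p = 0.0299), and lost it without replicates 1 or 3 of WT MEF, HSF1 KO MEF LiCl or HSF1 KO MEF, or WT MEF LiCl replicate 1 (-0.37 to -0.29, adjusted p = 0.0515 to 0.0717). Hars differed by -0.30 (SE 0.09, adjusted p = 0.0322), and lost it without replicates 1 or 3 of WT MEF LiCl, WT MEF or HSF1 KO MEF LiCl, or replicates 1 or 2 of HSF1 KO MEF (-0.32 to -0.25, adjusted p = 0.0503 to 0.0749). Mars2 differed by -0.54 (SE 0.16, adjusted p = 0.0231), and lost it without WT MEF LiCl replicate 3 (-0.46, adjusted p = 0.0528), WT MEF replicate 2 (-0.49, adjusted p = 0.0566) or HSF1 KO MEF replicate 2 (-0.49, adjusted p = 0.0558). On the highest transcript alone Farsb (adjusted p = 0.640), Cars (adjusted p = 0.235) and Vars (adjusted p = 0.259) did not pass. Qars had the largest difference in size among the members, -1.44 (SE 0.55, adjusted p = 0.0715), and did not pass. In WT MEF with LiCl its replicate 2 had 19.3 FPKM, of which 11.3 FPKM were in a 5-exon transcript that had at most 0.484 FPKM in any other library, while replicates 1 and 3 had 8.18 and 8.08 FPKM.

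Without LiCl, 12 of 20 cytosolic members were higher in HSF1 KO than in WT MEF and 0 were lower (limma, also 0 at an unadjusted p under 0.05), against 17.8% of all genes called higher and 20.4% called lower. The cytosolic median was 0.36 and that of all genes -0.03. The 12 were Aars, Eprs, Farsb, Gars, Hars, Iars, Kars, Lars, Nars, Rars, Tars and Yars. Inside the multi-tRNA synthetase complex 5 of 8 were higher, and outside it 7 of 12 were. Of the mitochondrial members 2 of 16 were higher (Ears2 and Mars2), with a median of 0.03. In 13 of 17 pairings for the same amino acid, the cytosolic gene had the higher log2 fold change. With LiCl in both genotypes that count was 11 of 17. For the response to LiCl it was 11 of 17 in HSF1 KO MEF and 9 of 17 in WT MEF. For the difference between the responses it was 9 of 17. Eprs and Fars2 recur in these pairings. The constant added before the log shrinks the changes of weakly expressed genes most, and most mitochondrial members are weakly expressed. Pairings with close values can therefore change order on plain FPKM. These counts hold for the scale used and do not show which class changed more.

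Gars had 128, 121 and 117 FPKM in HSF1 KO MEF, against 83, 80.4 and 77.0 FPKM in WT MEF. The genotypes were far apart, with a log2 change of 0.60 (SE 0.06, adjusted p = 2.13e-05). Aars had 44.2, 42.1 and 41.1 FPKM in HSF1 KO MEF, against 30.7, 29.3 and 28.5 FPKM in WT MEF, and a log2 change of 0.51 (SE 0.06, adjusted p = 5.39e-05). Tars, the threonyl enzyme gene, had 31.6, 34.2 and 30.8 FPKM in HSF1 KO MEF, against 21.7, 22.5 and 22.6 FPKM in WT MEF, and a log2 change of 0.51 (SE 0.10, adjusted p = 0.00194). No HSF1 KO library of these 3 genes was as low as a WT library. Nars had 129, 118 and 118 FPKM in HSF1 KO MEF, against 85.4, 84.2 and 85.5 FPKM in WT MEF. It too did not overlap, with a log2 change of 0.51 (SE 0.06, adjusted p = 3.39e-05). Farsb had 12.1, 12 and 17.7 FPKM in HSF1 KO MEF, against 5.57, 9.61 and 6.19 FPKM in WT MEF. The genotypes were apart, at 0.89 (SE 0.27, adjusted p = 0.0245), but it was no longer called after leaving out WT MEF replicate 1 (0.75, adjusted p = 0.0887) or 3 (0.82, adjusted p = 0.0716), or HSF1 KO MEF replicate 3 (0.71, adjusted p = 0.0899). The other 7 had log2 fold changes of 0.32 (Eprs) to 0.45 (Kars). The weakest of them was Yars, the tyrosyl enzyme gene (0.33, adjusted p = 0.0384), which did not pass without WT MEF replicate 1 (0.36, adjusted p = 0.0616) or 3 (0.25, adjusted p = 0.130), or HSF1 KO MEF replicate 1 (0.27, adjusted p = 0.131) or 3 (0.33, adjusted p = 0.0772). On the highest transcript alone, Farsb (adjusted p = 0.134), Iars (adjusted p = 0.608), Kars (adjusted p = 0.0738) and Yars (adjusted p = 0.0529) did not pass.

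Ears2, the mitochondrial glutamyl enzyme gene, had 1.69, 2.54 and 1.89 FPKM in HSF1 KO MEF, against 1.09, 0.952 and 0.804 FPKM in WT MEF. The genotypes were apart at low levels, with a log2 change of 0.63 (SE 0.17, adjusted p = 0.0126), and the call was lost without HSF1 KO MEF replicate 2 (0.52, adjusted p = 0.0526). Mars2 had 1.24, 1.44 and 1.19 FPKM in HSF1 KO MEF, against 0.821, 0.674 and 0.887 FPKM in WT MEF. It did not overlap, at 0.35 (SE 0.11, adjusted p = 0.0272), and lost the call without WT MEF replicate 1 (0.36, adjusted p = 0.0578) or 2 (0.30, adjusted p = 0.0943), or HSF1 KO MEF replicate 1 (0.37, adjusted p = 0.0538) or 2 (0.31, adjusted p = 0.0921). The other 14 mitochondrial members had values of -0.33 (Cars2) to 0.31 (Tars2), and the groups overlapped in each.

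Untreated HSF1 KO libraries also carried macrophage genes. All 14 markers of the list were higher than in untreated WT MEF, 14 of 14 fell with LiCl in HSF1 KO MEF, and under LiCl 7 of 14 were higher and 2 lower in HSF1 KO than in WT MEF. The 2 that were lower, Cd68 (-1.52, adjusted p = 2.98e-05) and Cd14 (-1.20, adjusted p = 3.66e-06), had also risen with LiCl in WT MEF. The sums of all 14 per group are given above. Ptprc, the pan-leukocyte marker gene, had 3.57 to 3.94 FPKM in the untreated HSF1 KO libraries and was listed at 0 in the 9 others. Fibroblast markers also differed between the genotypes. Without LiCl 1 of 10 was higher and 6 were lower in HSF1 KO than in WT MEF (log2 fold changes of -5.465 to 0.535). With LiCl 4 were higher and 5 lower (-3.63 to 0.965). Under LiCl the macrophage marker sum was 102 to 117 FPKM in HSF1 KO MEF and 40.9 to 44.7 FPKM in WT MEF. Lyz2 alone averaged 85.9 FPKM of it in HSF1 KO MEF and 9.50 FPKM in WT MEF. The part of these cells or genes in the synthetase differences was not tested.

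With LiCl in both genotypes, 10 of 20 cytosolic members were higher in HSF1 KO than in WT MEF and 0 were lower (limma, 1 lower at an unadjusted p under 0.05), against 19.6% of all genes called higher and 23.0% called lower. The medians were 0.29 over the cytosolic members, 0.25 over the mitochondrial ones and -0.03 over all genes. The 10 were Eprs, Iars, Kars, Lars, Nars, Rars, Tars, Vars, Wars and Yars, of which 8 of 20 were also higher without LiCl, against 9.14% of all genes in both, a comparison of the same genotypes in other libraries. Aars, Farsb, Gars and Hars were higher without LiCl and not called with it, and the negative differences between the LiCl responses given above are the test of that change. Vars had 20.4, 23.9 and 15.5 FPKM in LiCl-treated HSF1 KO MEF, against 9.64, 9.27 and 8.65 FPKM in LiCl-treated WT MEF. The HSF1 KO libraries were all far higher, with a log2 change of 1.02 (SE 0.14, adjusted p = 0.000185). Tars had 39.8, 40.9 and 33.7 FPKM in LiCl-treated HSF1 KO MEF, against 23.9, 18.2 and 20.8 FPKM in LiCl-treated WT MEF, and a log2 change of 0.83 (SE 0.10, adjusted p = 5.64e-05). There was no overlap in Tars, nor in Lars, Nars and Eprs, whose values in both genotypes stand above. Those 3 had log2 fold changes of 0.79 (SE 0.06, adjusted p = 1.99e-06), 0.73 (SE 0.06, adjusted p = 2.05e-06) and 0.68 (SE 0.06, adjusted p = 1.01e-05).

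The other cytosolic members that were higher under LiCl ran from 0.30 (Rars) to 0.61 (Iars), with Wars at 0.52 (SE 0.18, adjusted p = 0.0367). Wars, the tryptophanyl enzyme gene, which interferon is known to induce, lost its call without WT MEF LiCl replicate 2 (0.47, adjusted p = 0.104) or 3 (0.50, adjusted p = 0.0887), or HSF1 KO MEF LiCl replicate 1 (0.57, adjusted p = 0.0554), 2 (0.48, adjusted p = 0.0958) or 3 (0.51, adjusted p = 0.0819). Among mitochondrial members 4 of 16 were higher, against 19.6% of all genes. Ears2 had 1.76, 3.27 and 1.78 FPKM in LiCl-treated HSF1 KO MEF, against 0.553, 0.752 and 0.728 FPKM in LiCl-treated WT MEF, and a log2 change of 0.93 (SE 0.17, adjusted p = 0.00109). Tars2 had the KO values given above, against 3.44, 3.14 and 2.24 FPKM in LiCl-treated WT MEF, and a log2 change of 0.84 (SE 0.22, adjusted p = 0.0103). Neither overlapped between the genotypes. Sars2 had 4.12, 3.97 and 3.59 FPKM in LiCl-treated HSF1 KO MEF, against 2.76, 2.84 and 2.27 FPKM in LiCl-treated WT MEF, and Iars2 had 12.9, 12.9 and 15.6 FPKM, against 10.5, 10.4 and 11.3 FPKM. The HSF1 KO libraries were above the WT ones in both, with log2 fold changes of 0.43 (SE 0.10, adjusted p = 0.00584) and 0.33 (SE 0.10, adjusted p = 0.0245). Iars2 lost its call without WT MEF LiCl replicate 1 (0.32, adjusted p = 0.0664) or 2 (0.31, adjusted p = 0.0710), or HSF1 KO MEF LiCl replicate 3 (0.25, adjusted p = 0.0891). On the highest transcript alone, 6 cytosolic members and 2 mitochondrial ones were called higher. Vars (adjusted p = 0.140), Wars (adjusted p = 0.402), Kars (adjusted p = 0.667), Iars2 (adjusted p = 0.130) and Tars2 (adjusted p = 0.290) lost their calls, and Iars turned to -0.12 (adjusted p = 0.863), where its FPKM were split over 3 transcripts in shares that differed between libraries.

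**Figure D4:**
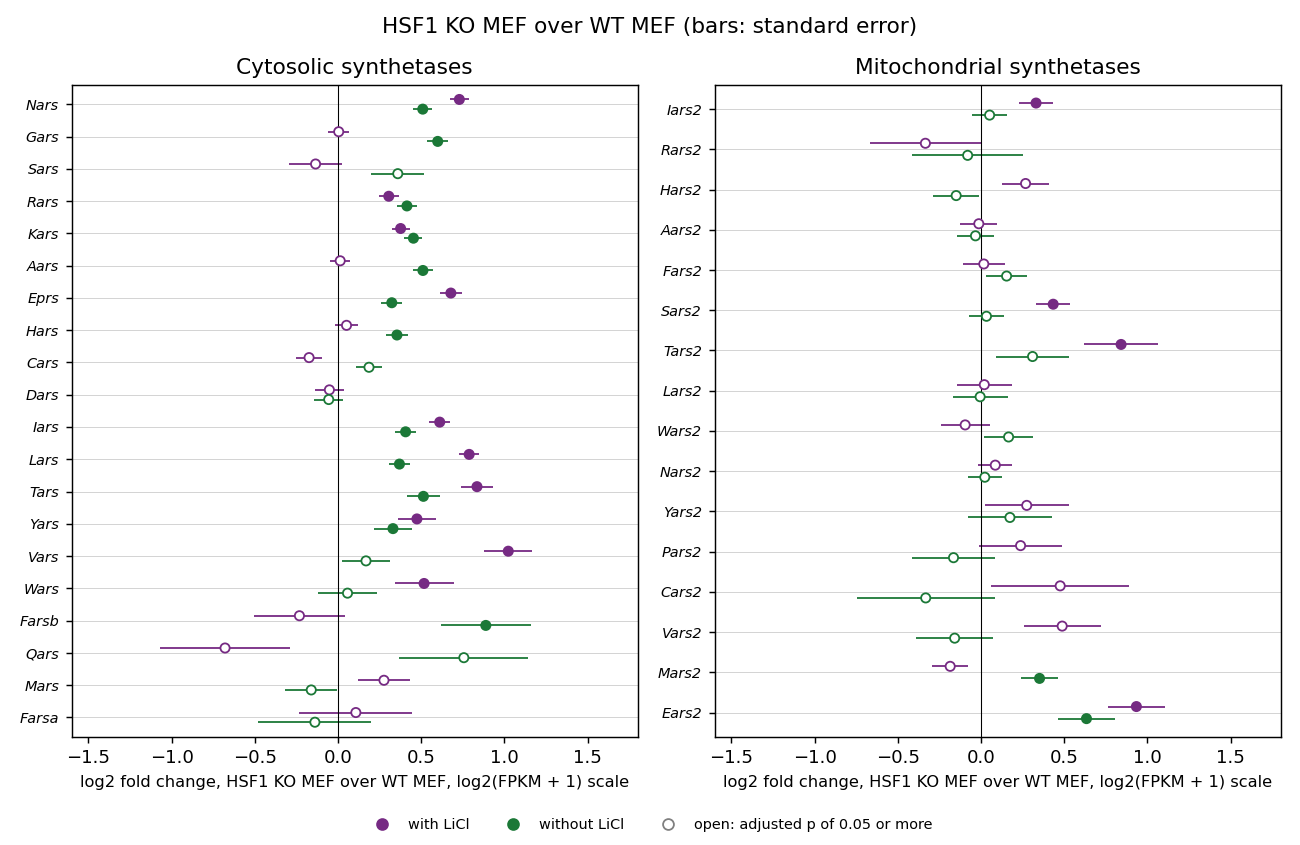
Log2 fold change of HSF1 KO MEF over WT MEF, on the log2(FPKM + 1) scale, for each cytosolic (left) and mitochondrial (right) member, with LiCl (purple, upper point) and without LiCl (green, lower point). Lines are standard errors, and filled points have an adjusted p under 0.05. No filled point lies left of 0. Gars, Aars, Hars and Farsb are filled without LiCl and open with it, and Vars (1.02) and Wars (0.52) are filled with LiCl and open without it.

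Setting the promoter letters beside these changes, the 5 cytosolic members with TGATGNAA in their window were all higher in HSF1 KO than in WT MEF without LiCl (Aars, Gars, Iars, Tars and Yars), against 3 of the 8 with a window and no match (Eprs, Farsb and Kars). In that comparison 12 of all 20 cytosolic members were higher, against 17.8% of all genes. Hars, Lars, Nars and Rars were among the 12 and had no window to search. With LiCl the counts were 3 of 5 (Iars, Tars and Yars) and 2 of 8 (Eprs and Kars). There 10 of all 20 cytosolic members were higher, against 19.6% of all genes. For the LiCl response, 3 of 5 with the match and 3 of 8 without it rose in WT MEF, and 2 of 5 and 2 of 8 did in HSF1 KO MEF. Sars, which rose in both genotypes, had no match in its window, and Tars and Yars, which had one, were not called with LiCl in either genotype. Dars, the member with the GAANNTTC match, was called in none of the 5 comparisons, with log2 fold changes of -0.13 with LiCl in HSF1 KO MEF and in WT MEF. These are counts over few genes, given with no test.

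The scaffold genes of the multi-tRNA synthetase complex were looked at beside its enzymes. With LiCl, 3 of 3 rose in HSF1 KO MEF, where 36.5% of all genes did, and 2 of 3 in WT MEF, where 38.1% did. These shares, with 21.1% of all genes called lower in HSF1 KO MEF and 27.1% in WT MEF, are also the background of the LiCl counts of the lists that follow. Eef1e1 had 20.2, 18 and 22.1 FPKM in LiCl-treated HSF1 KO MEF, against 11.2, 13.3 and 12.8 FPKM without it, and 16.9, 16.1 and 17.8 FPKM in LiCl-treated WT MEF, against 6.47, 6.0 and 7.50 FPKM without it. Neither pair overlapped, and untreated WT MEF was lowest. Its log2 fold changes were 0.65 (SE 0.10, adjusted p = 0.000224) in HSF1 KO MEF and 1.23 (SE 0.10, adjusted p = 1.1e-06) in WT MEF, and the difference between them was -0.58 (SE 0.14, adjusted p = 0.0100). Aimp1 rose by 0.38 in HSF1 KO MEF and 0.49 in WT MEF (adjusted p = 0.00824 and 0.00152). Aimp2 rose by 0.30 in HSF1 KO MEF (adjusted p = 0.00727) and had 0.03 in WT MEF (adjusted p = 0.757).

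Mitochondrial translation factors were followed next. Of 13 genes, 9 rose with LiCl in HSF1 KO MEF, with a median of 0.66 on the log2 scale, and 7 in WT MEF, with a median of 0.60. Tufm, the mitochondrial elongation factor EF-Tu gene, had 36.4, 41.9 and 37.8 FPKM in LiCl-treated HSF1 KO MEF, against 25.5, 24.3 and 26.7 FPKM without it, and 36.2, 36.4 and 36.6 FPKM in LiCl-treated WT MEF, against 19.2, 20.3 and 23.5 FPKM without it. The treated libraries were higher without overlap in both genotypes. Its partner Tsfm rose by 1.13 in HSF1 KO MEF and 1.22 in WT MEF, and Qrsl1, of the glutaminyl-tRNA amidation complex, by 0.66 and 0.98 (adjusted p of 0.00119 or less in all 4). Between the genotypes 1 of 13 was called higher and 1 lower without LiCl, where 17.8% and 20.4% of all genes were. With LiCl 1 was called higher and 0 lower, where 19.6% and 23.0% of all genes were.

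Of 20 cytosolic translation factor genes, 7 rose with LiCl and 4 fell in HSF1 KO MEF, and 10 rose and 3 fell in WT MEF. Eif2b5, the catalytic subunit gene of the exchange factor eIF2B, rose by 1.07 in HSF1 KO MEF and 1.19 in WT MEF (adjusted p = 8.54e-08 and 2.12e-08). Eef2, the translocation factor gene, fell by 0.49 on the log2 scale in HSF1 KO MEF (adjusted p = 1.28e-05). In HSF1 KO MEF against WT MEF, 7 of 20 were higher without LiCl and 8 with it, the rest not called, where 17.8% of all genes were higher without LiCl and 19.6% with it. Of 16 tRNA maturation and export genes, 11 rose and 1 fell with LiCl in HSF1 KO MEF, and 7 rose and 2 fell in WT MEF. Xpot, the tRNA export receptor gene, rose by 0.64 and 0.81 in these cells, and the pseudouridine synthase gene Pus1 by 0.71 and 0.98. Of 6 synthetase-related editing and peptidyl-tRNA hydrolase genes, LiCl-treated HSF1 KO MEF had 1 higher and 1 lower, and LiCl-treated WT MEF 3 higher and 1 lower.

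The ATF4 and amino acid response list was called for most of its 25 genes: 18 rose and 5 fell with LiCl in HSF1 KO MEF, and 17 rose and 4 fell in WT MEF. Ddit3, the gene of the stress factor CHOP, had 333, 352 and 304 FPKM in LiCl-treated HSF1 KO MEF, against 49.6, 55.1 and 42.8 FPKM without it, and 597, 579 and 519 FPKM in LiCl-treated WT MEF, against 43.1, 49.1 and 39.8 FPKM without it. Treated levels were far above untreated ones in both, with log2 fold changes of 2.72 and 3.66. Sesn2 rose by 1.23 and 1.35, and Atf5 by 1.56 and 1.75, while Pycr1, of proline synthesis, had -2.68 in WT MEF (adjusted p = 8.88e-09). Between HSF1 KO MEF and WT MEF, 10 of 25 were higher and 6 lower without LiCl, where 17.8% and 20.4% of all genes were, and 11 higher and 7 lower with it, where 19.6% and 23.0% were. Phgdh and Psat1, of serine synthesis, were higher in HSF1 KO MEF by 2.15 and 1.82 without LiCl. Of the 4 eIF2 kinase genes, 2 rose and 1 fell with LiCl in HSF1 KO MEF, and 2 rose and 0 fell in WT MEF. In HSF1 KO against WT MEF, 2 were higher and 1 lower without LiCl, and 0 higher and 2 lower with it. Eif2ak3 averaged 15.5 FPKM with LiCl in WT MEF, against 8.26 FPKM without it. Eif2ak2 averaged 15.9 FPKM with LiCl in HSF1 KO MEF, against 36.1 FPKM without it. Eif2ak4, which encodes GCN2, rose by 0.31 in HSF1 KO MEF and 0.56 in WT MEF (adjusted p = 0.00495 and 6.27e-05). It was higher in HSF1 KO than in WT MEF without LiCl by 0.41 (adjusted p = 0.00146).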

How the data were processed

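Poly(A)-selected RNA of 12 libraries, 3 for each of 4 groups, was sequenced from a stranded kit. Per the submitters' processing notes, cutadapt, HISAT2 2.0.5 and StringTie were used with GRCm38. The deposited values were taken as FPKM per transcript, made by the authors, and no source used here names the unit. Transcripts whose highest group mean was under 0.5 FPKM were not in the table, and the number of reads per library is unknown, so no counting interval was given.

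The 27185 transcripts were matched to GENCODE M21 by ID without version (70, at most 0.136% of a library, did not match) and summed per gene to 12988 genes. The 12279 genes averaging 0.5 FPKM or more were fitted on log2(FPKM + 1) with limma 3.58.1 in R 4.3.3 (group means of all 12 libraries, empirical Bayes with a variance trend, Benjamini-Hochberg over all genes tested, threshold 0.05), with 5 comparisons. The fit was also run on simulated data with independent noise and few changed genes. These libraries differ from that setting, so no error rate is drawn from it. All 36 members were named. Values of every library were given for called members among the 5 largest changes of a class or past the test of the difference in response, and of other lists up to 4 genes with the smallest adjusted p were named. The members and lists were chosen with earlier results of these data known, and the role grouping after their values were seen. Alternatives were another pseudocount, filter and scaling, the highest transcript, a replicate block, fits of only the groups compared, each library left out and, added later, numbered libraries only. Promoter windows came from RefSeq, where stretches with CACGTG are not printed and 1 other stretch is not reported here.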

Additional observations from a re-analysis of the deposited data

Results flagged for a closer look

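The responses to LiCl of 9 of 36 members differed between HSF1 KO MEF and WT MEF when that difference was tested directly (limma, adjusted p under 0.05 over all genes tested), against 16.1% of all genes called positive and 15.3% called negative. Counted in both directions together, the 9 are no larger a share of the members than the called genes are of all genes. Each difference is given as the log2 response in HSF1 KO MEF minus that in WT MEF. The difference was -0.594 for Gars, -0.497 for Aars, -0.36 for Cars, -0.302 for Hars and -1.12 for Farsb among cytosolic members, and -0.537 for the mitochondrial Mars2. It was 0.855 for Vars, 0.419 for Lars and 0.355 for Eprs. Gars, Aars, Vars and Lars kept their call without any 1 library, and so did Eprs.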

How the results depend on the processing

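Counts of called members moved most in small counts. With a minimum mean of 2 FPKM, 0 mitochondrial members had a lower difference in response and 0 were higher in HSF1 KO MEF without LiCl. That filter left Mars2 (mean 1.73 FPKM) and Ears2 (1.48 FPKM) out of the test. The 160 results of members still tested kept their calls. With median-of-ratios scaling, 5 cytosolic members fell with LiCl in WT MEF, and 2 cytosolic and 2 mitochondrial members fell in HSF1 KO MEF. Scaled to the same total, 1 cytosolic member fell in WT MEF and 1 mitochondrial member had a higher difference. On the highest transcript, 1 cytosolic member fell in WT MEF, 0 cytosolic and 1 mitochondrial member fell in HSF1 KO MEF, 3 cytosolic members had a lower difference, and 6 cytosolic and 2 mitochondrial members were higher in HSF1 KO MEF with LiCl; Fars2 turned to 0.692 in LiCl-treated HSF1 KO MEF and Iars to -0.122 between the genotypes with LiCl. The cause was not tested. With numbered libraries only, 0 cytosolic members fell in HSF1 KO MEF, 2 had a lower difference and 1 mitochondrial member was higher in HSF1 KO MEF without LiCl. Leaving out 1 library at a time, cytosolic members that fell numbered 0 to 2 in WT MEF and 0 to 1 in HSF1 KO MEF, lower differences numbered 2 to 5 cytosolic and 0 to 1 mitochondrial, higher mitochondrial differences 0 to 2, and mitochondrial members higher in HSF1 KO MEF without LiCl 0 to 2. A replicate block gave 1 mitochondrial member with a higher difference and changed 5 calls of single members: the differences of Qars (adjusted p = 0.0481) and Sars2 (adjusted p = 0.0135) passed and that of Farsb did not (adjusted p = 0.0625), and Tars2 in WT MEF (adjusted p = 0.0383) and Eprs in HSF1 KO MEF (adjusted p = 0.0241) passed with LiCl. In their deviations from the group means, same-numbered libraries 1 and 2 correlated at -0.01 to 0.138 and the 4 unnumbered libraries at 0.125 to 0.195 (6 pairs). The unnumbered libraries thus deviated together, but not every same-numbered pair did, so the numbers were not taken to pair libraries. The values carry no read depth, so the precision of low members is unknown.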

Other observations

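Rars2, the mitochondrial arginyl enzyme gene, had 2.08 FPKM in HSF1 KO MEF LiCl replicate 1, against 6.16 to 9.47 FPKM in the 11 other libraries, all from 1 transcript in the table. It was called in none of the 5 comparisons with all libraries. Without that library it was called lower with LiCl in WT MEF (-0.33, adjusted p = 0.0102), and so it was in the fit of only the 2 groups compared (adjusted p = 0.0276).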
